A study of Mus musculus with 18 samples.

Results

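The genes described here encode the proteins of the mitochondrial ribosome. They were the rows of the deposited expression table whose symbol begins with Mrpl or Mrps followed by a number, leaving out pseudogenes, and they numbered 78 of 12547 measured genes. Of these, 51 encode proteins of the large subunit, 26 proteins of the small subunit, and 1, Mrps36, a protein of another complex. The table came from RNA-seq of polyadenylated RNA of mouse CD4 T cells and holds 18 libraries in 6 groups of 3. All groups had started as naive CD4 T cells that were activated with beads bearing antibodies to CD3 and CD28, in IMDM medium to which serum, IL2, IL12 and anti-IL4 had been added, conditions that favour Th1 helper cells. The genotypes were Id3 knockout (KO) and wild type (WT), each present in sets 3, 5 and 6. Id3 encodes an inhibitor of E protein transcription factors. The labels do not say what a set is, give no age or strain and do not say how the KO allele was made. Contrast names of the authors' deposited table carry the number 24 for set 3 and 96 for sets 5 and 6, with no unit.

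Mitochondria have a ribosome of their own, which makes the few subunits of the respiratory chain and of ATP synthase that mitochondrial DNA still encodes. Its RNAs come from mitochondrial DNA, while all of its proteins are encoded in the nucleus, made in the cytosol and imported. Part of these proteins have counterparts in bacterial ribosomes and part are found only in mitochondria. Naive T cells build up mitochondria and mitochondrial translation when they are activated, and effector functions of T cells draw on both.

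Values are on the authors' log2 scale, so a difference of 1 is a doubling. Each was examined as deposited and after subtracting the median of all genes in its library (median centred), because the bulk of genes was shifted upward in KO libraries of sets 5 and 6. The group median of all genes was 9.18, 9.57 and 9.66 in KO cells of sets 3, 5 and 6, and 9.21, 9.18 and 9.25 in WT cells. Centring therefore moved KO against WT differences by 0.03, -0.39 and -0.41 in sets 3, 5 and 6. Within a group 97.1% or more of the sorted values were identical between libraries, so the depth of single libraries was unknown and the spread within groups may be compressed. Id3 lay at 5.63 or below in the KO libraries and between 8.85 and 10.08 in the WT libraries, in the order the labels call for. Markers of T cells and of other cells moved with the sets and with the genotype. The summed level of 6 T cell markers was 14.73 to 14.99 in KO and 15.26 to 15.33 in WT libraries of set 3, and 16.15 to 16.4 in KO and 15.67 to 16.05 in WT libraries of sets 5 and 6. Of these 6 markers, 4 fell in KO cells of set 3, 5 rose in set 5 and 5 in set 6 as deposited, and after centring 2 rose and 1 fell in set 5 and 1 rose in set 6. For 5 B cell markers the sum was 7.74 to 10.7 in KO and 5.81 to 7.13 in WT libraries of set 3, and in sets 5 and 6 it was 6.30 to 7.10 in KO and 4.78 to 5.87 in WT libraries. For the 4 measured of 6 erythroid markers it was 11.6 to 13.8 in KO and 8.18 to 9.25 in WT libraries of set 3. In set 5 the erythroid sum was 4.20 to 5.23 in KO and 5.89 to 6.15 in WT libraries, and in set 6 it was 5.60 to 6.11 and 5.65 to 7.08. For the 3 measured of 6 myeloid markers the sum was 4.65 to 5.82 in set 3. In set 5 it was 3.96 to 5.55 in KO and 3.67 to 4.08 in WT libraries. In set 6 it was 5.90 to 7.53 in KO and 3.60 to 4.28 in WT libraries. The KO excess of set 6 lay in Adgre1, which averaged 6.34 against 2.39 for WT. Itgam went the other way there (1.74 against 2.57), and Lyz2 was alike (1.03 against 1.02). The set 5 averages, KO against WT, were 4.41 against 1.70 for Adgre1, 2.67 against 3.15 for Itgam and 1.38 against 1.06 for Lyz2. For 2 CD8 markers the sum was 9.71 to 10.2 in set 3 and 7.78 to 9.40 in sets 5 and 6. For 4 NK cell markers it was 9.12 to 10.4 and 6.95 to 8.86. The part of these markers in the results was not tested. In such bulk samples, fewer cells of a type and less RNA per cell cannot be told apart.

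Transcripts of mitochondrial ribosomal proteins were lower in set 5 than in set 3 in cells of both genotypes. The median over the members was 11.55, 11.55 and 11.44 in the WT libraries of set 3, and 10.93, 10.72 and 10.68 in those of set 5. In KO cells it was 11.35, 11.58 and 11.30 in set 3 and 10.84, 10.78 and 10.74 in set 5. In either genotype, each set 5 library lay below each set 3 library. In WT cells 68 of the 78 members fell and 2 rose by limma (adjusted p under 0.05), where 38.3% of all genes fell and 29.3% rose. Their median difference was -0.67, and that of all genes -0.12. In KO cells 59 members fell and 4 rose, against 23.4% and 49.8% of all genes, with medians of -0.75 and 0.38. After centring, 66 fell and 3 rose in WT cells (36.8% and 30.5% of all genes), and 74 fell and none rose in KO cells (35.7% and 35.6% of all genes). The authors' deposited table has no contrast of sets 5 and 3.

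**Figure D1:**
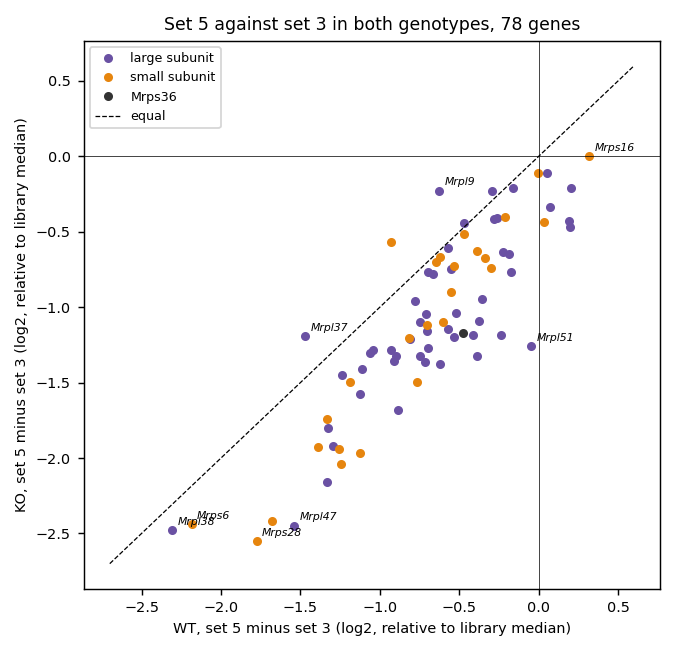
Set 5 minus set 3 difference of the 78 members (log2, relative to the library median), in WT cells on the horizontal and KO cells on the vertical axis, 1 point per gene, coloured by subunit, with a dashed line of equal values. Most points lie below 0 on both axes, with Mrps28, Mrpl38 and Mrps6 farthest out. Mrpl51 stands apart near 0 in WT cells.

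Of the members, 58 fell in both genotypes as deposited, out of 68 in WT and 59 in KO cells, and 65 fell in both after centring. Across the 78 members the differences in WT and KO cells, which rest on separate libraries, had a Pearson r of 0.870 and a Spearman rho of 0.841. All these genes share the same libraries within a genotype, so the correlation is a description. For all genes, neither the share that fell in both genotypes nor this correlation was computed. Whether the overlap and the correlation are particular to the members therefore cannot be said. The members differed widely in how far they moved, from -2.34 to 0.29 in WT and from -2.17 to 0.38 in KO cells.

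Mrps6, a small subunit protein with a bacterial counterpart, stood at 12.28, 12.26 and 12.06 in WT libraries of set 3 and at 10.14, 9.94 and 9.88 in those of set 5. In KO libraries it stood at 12.15, 12.24 and 11.87, and at 10.33, 9.84 and 9.92. It fell by 2.22 (SE 0.14; adjusted p = 1.21e-09) in WT and by 2.06 (SE 0.14; adjusted p = 1.23e-09) in KO cells, and the sets did not overlap. Mrps28, also of the small subunit, stood at 11.74, 11.86 and 11.82 in WT libraries of set 3 and at 10.28, 9.88 and 9.83 in those of set 5, a fall of 1.81 (SE 0.16; adjusted p = 6.03e-08). In KO cells Mrps28 fell by 2.17 (SE 0.16; adjusted p = 4.4e-09), the largest fall of a member there. Mrpl38, a mitochondria-specific protein of the large subunit, was at 11.63, 11.81 and 11.49 in WT libraries of set 3 and at 9.13, 9.07 and 9.72 in set 5. It fell by 2.34 (SE 0.26; adjusted p = 9.31e-07) in WT cells, the largest fall there, and by 2.10 (SE 0.26; adjusted p = 2.22e-06) in KO cells, where its set 5 libraries were spread from 8.79 to 10.01. Mrps18b, a small subunit protein, fell by 1.71 (SE 0.10; adjusted p = 7.61e-10) in WT cells. Mrpl47, a large subunit protein, fell by 2.07 (SE 0.22; adjusted p = 2.64e-07) in KO cells.

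A few members went the other way. Mrps16, a small subunit protein with a bacterial counterpart, stood at 11.47, 11.33 and 11.32 in WT libraries of set 3 and at 11.95, 11.51 and 11.53 in set 5. In KO libraries it was at 11.28, 11.46 and 11.33 and at 11.72, 11.78 and 11.71. Set 5 lay above set 3 without overlap in both genotypes, and Mrps16 rose by 0.29 (SE 0.11; adjusted p = 0.0357) in WT and by 0.38 (SE 0.11; adjusted p = 0.00666) in KO cells. The WT call was lost without WT replicate 2 or 3 of set 3 or WT replicate 1 of set 5 (adjusted p = 0.0928, 0.0927 and 0.236), and after centring the KO difference was -0.00 (adjusted p = 0.99). Mrpl18, a large subunit protein, rose by 0.16 (SE 0.07; adjusted p = 0.0467) in WT cells, a call lost without any 1 of the 6 libraries except WT replicate 3 of set 5 (0.0582 to 0.195). In KO cells Mrps21 rose by 0.27 (SE 0.07; adjusted p = 0.0018), Mrpl10 of the ribosomal stalk by 0.27 (SE 0.07; adjusted p = 0.00201) and Mrpl4 by 0.17 (SE 0.07; adjusted p = 0.0389). Relative to the median these differences were -0.11, -0.11 and -0.21, and the last was a fall (adjusted p = 0.0151), lost without KO replicate 1 of set 3 (0.0592). The rise of Mrpl4 passed without KO replicate 1 of set 3 but not without any 1 of the other 5 libraries (0.0516 to 0.11).

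Set by set, KO cells were compared with WT cells to find which of these transcripts differ by Id3 genotype. In set 3 few passed the test. Of the 78 members 2 fell and none rose by limma, where 4.46% of all genes fell and 6.92% rose, and the median difference was -0.15 (all genes -0.07), with a range of -0.35 to 0.26. Mrpl30, a large subunit protein, fell by 0.26 (SE 0.08; adjusted p = 0.0443), and Mrps34, a mitochondria-specific small subunit protein, by 0.22 (SE 0.07; adjusted p = 0.0445). Each call held without KO replicate 2 and was lost when any 1 of the other 5 libraries was left out (0.0543 to 0.185 for Mrpl30 and 0.0768 to 0.176 for Mrps34), and the count of falls was 0 to 8 over the libraries left out. After centring no member passed in either direction (3.28% of all genes fell and 7.29% rose), with differences of -0.24 and -0.20 for Mrpl30 and Mrps34 (adjusted p = 0.0697 and 0.0756). At an unadjusted p under 0.05, 2 members were higher and 19 lower as deposited (12.3% and 14.9% of all genes), and 2 and 8 after centring (13.4% and 11.7% of all genes). The authors' deposited table lists no member in set 3 at its adjusted p under 0.05, where 3.26% of all genes were higher and 0.654% lower. Of the 78 members, 23 had all 3 KO libraries below all 3 WT libraries and 1 had them above (17.9% and 12% of all genes), and after centring 17 and 1 (14.9% and 13.2% of all genes).

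In set 5 single members of the mitochondrial ribosome went in both directions as deposited, and nearly all stood lower in KO cells relative to the other genes. As deposited, 23 of 78 members fell and 9 rose, where 8.08% of all genes fell and 50.1% rose. The median difference was -0.14 for the members and 0.39 for all genes. After centring, 65 members fell and none rose, where 24.7% of all genes fell and 24.9% rose, and the median was -0.53. All 23 members that fell as deposited also fell after centring. Of the 9 that rose as deposited none rose after centring, and 4 of them (Mrpl24, Mrpl4, Mrps21 and Mrps9) then fell. The lower level in KO cells of set 5 thus passed the test on both scales for 23 members. For the other 42 it passed only relative to the median of all genes. Regardless of the test, the deposited difference was above 0 for 28 of the 78 members and for 75.0% of all genes. Leaving out WT replicate 1 left 13 falls as deposited, and leaving out KO replicate 3 left 15 falls and 4 rises. Without WT replicate 2, 5 rose.

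**Figure D2:**
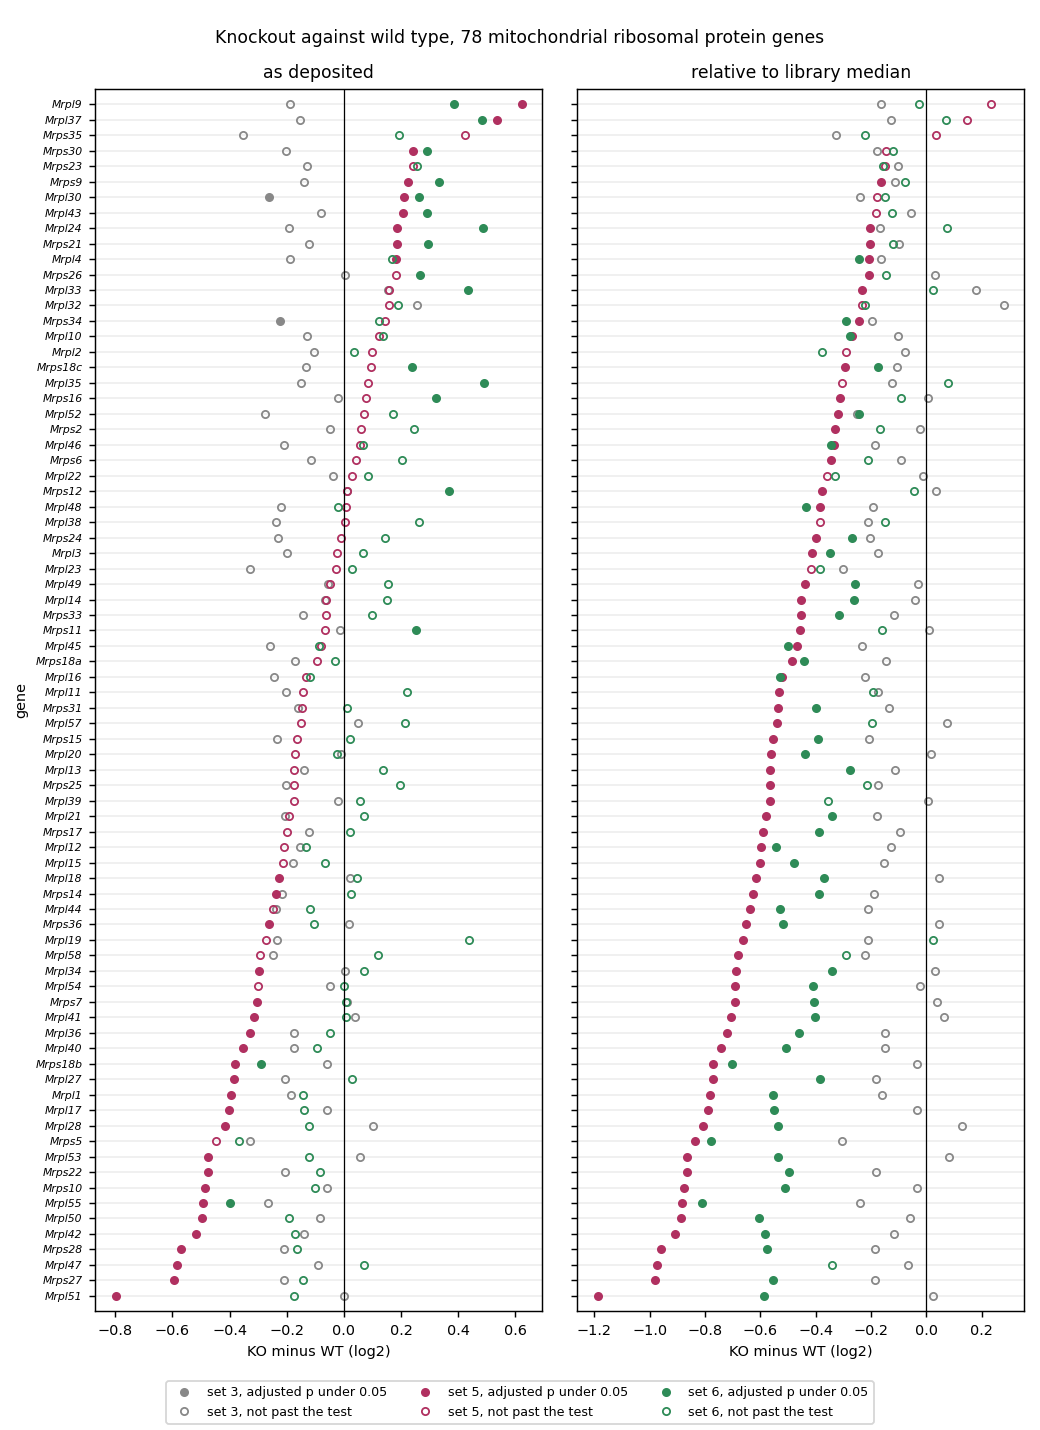
KO minus WT difference (log2) of each of the 78 members, 1 row per gene in the order of set 5, as deposited on the left and relative to the library median on the right, with a colour per set and filled points for genes past the test. In set 5 they run from -0.80 to 0.62 as deposited, and in sets 5 and 6 most lie below 0 once centred.

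Mrpl51, a large subunit protein found only in mitochondria, had the largest fall. It stood at 11.82, 11.53 and 11.63 in WT and at 10.92, 11.12 and 10.54 in KO libraries of set 5, without overlap. It fell by 0.80 (SE 0.13; adjusted p = 8.55e-05), and by 1.19 relative to the median (adjusted p = 4.87e-06). In set 3 its means were 11.74 ± 0.12 in WT and 11.74 ± 0.18 in KO cells (SD, n = 3 each). From set 3 to set 5 Mrpl51 differed by -0.08 (adjusted p = 0.616) in WT cells and fell by 0.88 (adjusted p = 1.78e-05) in KO cells, which share the KO libraries of set 5 with the comparison above. Mrps27, a small subunit protein with RNA-binding repeats, stood at 9.55, 9.20 and 9.26 in WT and at 8.57, 8.92 and 8.74 in KO libraries, and fell by 0.59 (SE 0.12; adjusted p = 0.000642). Mrpl42 stood at 12.12, 11.98 and 11.92 in WT and at 11.45, 11.60 and 11.41 in KO libraries, and fell by 0.52 (SE 0.08; adjusted p = 2.86e-05). KO and WT libraries did not overlap for either gene. Mrps28 fell by 0.57 (SE 0.16; adjusted p = 0.00614) and Mrpl50 by 0.50 (SE 0.12; adjusted p = 0.00176). Mrpl47, at 9.31, 9.18 and 8.77 in WT and 8.62, 8.56 and 8.32 in KO libraries, fell by 0.58 (SE 0.22; adjusted p = 0.0298). That call was lost without KO replicate 3 (0.103), WT replicate 1 (0.115) or WT replicate 2 (0.0824), while after centring it held without any 1 library (highest adjusted p = 0.0109).

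The largest rise as deposited was that of Mrpl9, a large subunit protein with a bacterial counterpart. It stood at 11.26, 11.37 and 11.44 in WT and at 12.07, 11.77 and 12.09 in KO libraries, and rose by 0.62 (SE 0.10; adjusted p = 7.35e-05). Mrpl37, a mitochondria-specific protein of the large subunit, stood at 10.11, 10.07 and 10.00 in WT and at 10.58, 10.55 and 10.67 in KO libraries, and rose by 0.54 (SE 0.10; adjusted p = 0.000345). All KO libraries lay above all WT libraries for both genes. Relative to the median the differences were 0.23 and 0.15 and did not pass (adjusted p = 0.0691 and 0.256). Mrps30 rose by 0.24 (SE 0.07; adjusted p = 0.00714), Mrps9 of the small subunit by 0.22 (SE 0.05; adjusted p = 0.0019), Mrpl30 by 0.21 (SE 0.08; adjusted p = 0.0323) and Mrpl43 by 0.21 (SE 0.08; adjusted p = 0.041). Relative to the median these 4 differences were -0.15, -0.17, -0.18 and -0.18, and that of Mrps9 was a fall (adjusted p = 0.0175), lost without KO replicate 2 (0.0738), WT replicate 1 (0.0624) or WT replicate 2 (0.05). The rise of Mrpl30 did not pass with KO replicate 1 (0.0603), KO replicate 3 (0.141), WT replicate 2 (0.0723) or WT replicate 3 (0.104) left out. That of Mrpl43 did not pass with KO replicate 2 (0.13), KO replicate 3 (0.104), WT replicate 1 (0.0644) or WT replicate 3 (0.156) left out.

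**Figure D3:**
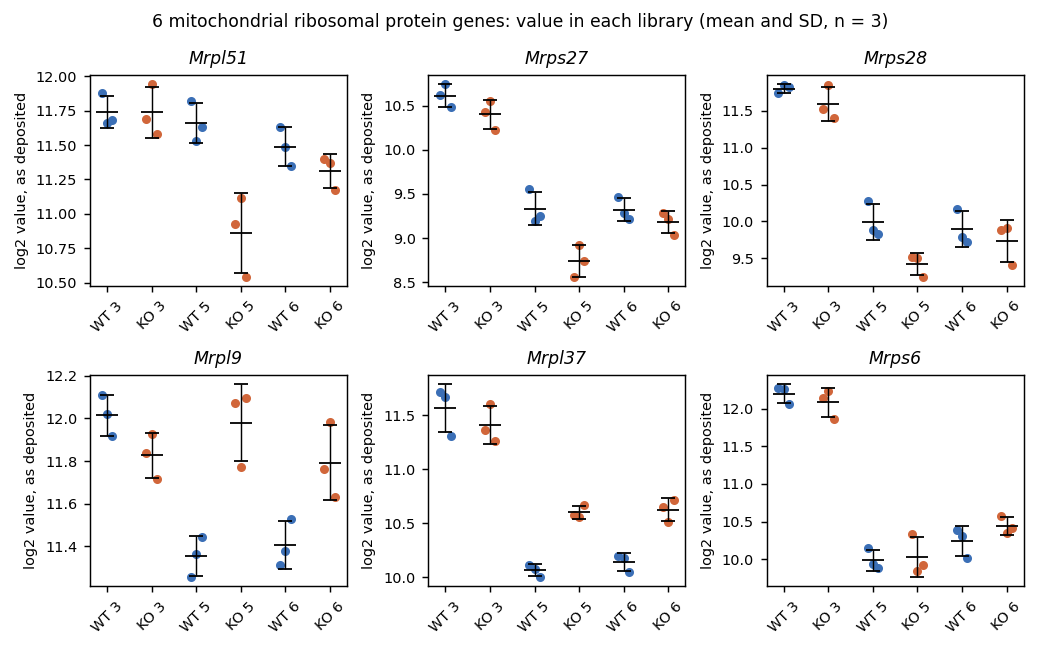
Log2 value as deposited of 6 members in each of the 18 libraries, with 1 panel per gene and a vertical axis that does not start at 0, groups along the horizontal axis, points for libraries, and lines for the mean and SD (n = 3). In set 5 the KO points of Mrpl51 and Mrps27 sit below and those of Mrpl9 and Mrpl37 above the WT points.

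The promoter windows of these 4 genes, the largest falls and rises of set 5, are shown because their transcripts moved apart on the deposited scale. Each window holds 300 bases around the annotated start of the gene in RefSeq, most of them before it, on mouse build GRCm38.p6, 5′ to 3′ on the strand of the gene. The authors' build was GRCm39, so these positions do not apply to it. Mrpl51 lies at chr6:125191950-125192249 (plus strand), Mrps27 at chr13:99344536-99344835 (plus strand), Mrpl9 at chr3:94443086-94443385 (plus strand) and Mrpl37 at chr4:107066817-107067116 (minus strand). Capitals mark matches, on either strand, to motifs of 3 factors known for promoters of nuclear genes of mitochondrial proteins, written GCATGCGC for NRF1, CCGGAAGT for the ETS family that includes GABP, and AAGATGGC for YY1. None of these motifs contains another.
Mrpl51 promoter: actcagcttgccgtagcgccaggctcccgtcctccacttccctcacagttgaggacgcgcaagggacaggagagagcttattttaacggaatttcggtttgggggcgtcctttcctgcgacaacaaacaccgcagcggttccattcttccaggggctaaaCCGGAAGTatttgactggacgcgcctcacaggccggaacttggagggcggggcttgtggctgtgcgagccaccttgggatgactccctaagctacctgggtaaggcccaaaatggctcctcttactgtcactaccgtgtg
Mrps27 promoter: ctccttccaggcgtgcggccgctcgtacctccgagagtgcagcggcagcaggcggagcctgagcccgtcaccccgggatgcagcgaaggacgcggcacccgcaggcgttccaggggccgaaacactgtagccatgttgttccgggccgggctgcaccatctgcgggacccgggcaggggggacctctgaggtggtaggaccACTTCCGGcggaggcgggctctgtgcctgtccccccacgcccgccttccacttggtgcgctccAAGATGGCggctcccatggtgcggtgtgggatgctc
Mrpl9 promoter: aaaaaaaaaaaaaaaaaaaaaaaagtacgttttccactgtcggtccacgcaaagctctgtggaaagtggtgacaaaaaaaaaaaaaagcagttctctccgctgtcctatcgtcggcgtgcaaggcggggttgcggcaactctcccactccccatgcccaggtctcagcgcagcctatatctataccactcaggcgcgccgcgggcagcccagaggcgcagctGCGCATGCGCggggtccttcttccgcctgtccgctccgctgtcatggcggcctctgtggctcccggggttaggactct
Mrpl37 promoter: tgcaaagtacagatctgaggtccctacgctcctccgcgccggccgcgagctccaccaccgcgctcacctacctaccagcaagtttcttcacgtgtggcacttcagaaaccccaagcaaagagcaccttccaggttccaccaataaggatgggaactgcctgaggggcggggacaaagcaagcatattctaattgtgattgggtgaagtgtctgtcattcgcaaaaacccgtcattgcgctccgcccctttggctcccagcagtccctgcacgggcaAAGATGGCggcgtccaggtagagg
The Mrpl51 window held an ETS match, the Mrps27 window an ETS match on the other strand and a YY1 match, the Mrpl9 window NRF1 matches that overlap on both strands and the Mrpl37 window a YY1 match. Of the 78 members 69 were found in the RefSeq table, with 75 windows. Among these windows 12 (16%) held the ETS motif, 12 (16%) the YY1 motif and 8 (10.7%) the NRF1 motif. In all 32851 windows of the table the shares were 3.89%, 2.75% and 2.71%. Per matched gene the shares were 17.4%, 17.4% and 11.6% for members, and 9.25%, 5.28% and 5.98% for the 9978 measured genes found in the table. The E box CACGTG, a sequence bound by MYC and related factors and not put in capitals, was in the Mrpl37 window and in 7 of the 75 windows (9.33%; 7.15% of all windows), and in 7.25% of the matched members and 11.7% of the matched measured genes. Such matches are descriptions of the letters and not evidence of binding.

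In set 6 fewer members fell in KO cells than in set 5. The centred KO minus WT difference was above 0 for 5 of 78 members and for 50.3% of all genes. As deposited, 15 rose and 2 fell by limma, where 53.9% of all genes rose and 4.59% fell, with a median of 0.07 (all genes 0.42). After centring none rose and 48 fell, where 18.8% of all genes rose and 18.5% fell, with a median of -0.34. All 48 were among the 65 that fell after centring in set 5. Of the members that rose as deposited, 9 in set 5 and 15 in set 6, 8 were shared (Mrpl24, Mrpl30, Mrpl37, Mrpl43, Mrpl9, Mrps21, Mrps30 and Mrps9). Mrpl55 and Mrps18b fell in both sets as deposited. The share of all genes called in both sets was not counted, so whether these overlaps are particular to the members cannot be said. Sets 5 and 6 have separate libraries of each genotype. However, libraries of equal number deviated together between these sets (correlation of deviations from group means 0.22 to 0.34 in KO and 0.12 to 0.16 in WT cells). The shared calls may therefore not be independent repeats.

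Mrpl55, a large subunit protein, stood at 10.37, 10.10 and 9.97 in WT and at 9.96, 9.72 and 9.57 in KO libraries of set 6. It fell by 0.40 (SE 0.13; adjusted p = 0.0124), although the highest KO library (9.96) lay just under the lowest WT library (9.97). Mrps18b stood at 10.89, 10.83 and 10.58 in WT and at 10.63, 10.54 and 10.25 in KO libraries, so that the groups overlapped, and it fell by 0.29 (SE 0.10; adjusted p = 0.0204). As deposited, neither fall passed without KO replicate 3 (0.067 for Mrpl55 and 0.129 for Mrps18b) or WT replicate 1 (0.0752 and 0.0911), and that of Mrps18b was also lost without WT replicate 2 (0.0707). After centring they were -0.81 (adjusted p = 0.000157) and -0.70 (adjusted p = 7.78e-05). Mrps5 and Mrpl50, which did not pass as deposited (-0.37, adjusted p = 0.108, and -0.19, adjusted p = 0.172), fell by 0.78 and 0.61 relative to the median (adjusted p = 0.00431 and 0.000911).

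Mrpl24, a large subunit protein at the exit of the peptide tunnel, stood at 11.50, 11.44 and 11.64 in WT and at 12.11, 11.89 and 12.05 in KO libraries of set 6. It rose by 0.49 (SE 0.07; adjusted p = 1.94e-05). Mrpl33, another large subunit protein with a bacterial counterpart, stood at 13.45, 13.68 and 13.55 in WT and at 14.12, 13.87 and 13.99 in KO libraries, and rose by 0.44 (SE 0.07; adjusted p = 5.14e-05). KO lay above WT in every library for both genes. Mrpl37 rose by 0.48 (SE 0.10; adjusted p = 0.000891), Mrpl9 by 0.39 (SE 0.10; adjusted p = 0.00422), Mrps12, a small subunit protein at the decoding site, by 0.37 (SE 0.08; adjusted p = 0.000912) and Mrpl35 by 0.49 (SE 0.17; adjusted p = 0.0201). The call on Mrpl35 did not hold with KO replicate 1 (0.0721), KO replicate 2 (0.0775), WT replicate 2 (0.105) or WT replicate 3 (0.0811) left out. After centring these 6 differences lay between -0.04 and 0.08 and did not pass (adjusted p from 0.415 to 0.861).

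Set 6 was also compared with set 5 within a genotype. In WT cells no member passed by limma in either direction, where 3.01% of all genes rose and 0.359% fell (1.49% and 0.566% after centring). At an unadjusted p under 0.05, 4 members were higher and 1 lower as deposited (14.3% and 3.64% of all genes), and 1 and 6 after centring (8.54% and 7.85% of all genes). In KO cells 13 members rose and none fell as deposited, where 9.93% of all genes rose and 2.03% fell, and 3 rose after centring (3.87% of all genes rose and 3.64% fell). With the replicate number as a block within each genotype, 28 members rose and none fell in KO cells as deposited (13.5% and 3.03% of all genes), and 7 rose and none fell after centring (5.65% and 5.56% of all genes). In WT cells the block gave 1 rise and no fall as deposited (4.59% and 0.725% of all genes) and no rise and 1 fall after centring (2.21% and 1.18% of all genes). The authors' deposited table lists no member for either genotype, and 0.462% of all genes as higher and 0.143% as lower in KO cells, and 0.638% and 0.0558% in WT cells. Mrps10, a small subunit protein with a bacterial counterpart, stood at 9.69, 9.66 and 9.57 in KO libraries of set 5 and at 10.05, 10.29 and 10.12 in those of set 6, and rose by 0.51 (SE 0.11; adjusted p = 0.00896). Mrpl27, a large subunit protein near the site of peptide bond formation, stood at 10.76, 10.71 and 10.79 and at 11.29, 11.26 and 11.01, and rose by 0.44 (SE 0.08; adjusted p = 0.00298). After centring these rises were 0.41 and 0.34 (adjusted p = 0.0336 and 0.0173). The centred call on Mrps10 held without KO replicate 2 of set 5 but not without any 1 of the other 5 libraries (0.0557 to 0.138). That on Mrpl27 was lost without KO replicate 3 of set 5 (0.0542) or KO replicate 1 (0.082) or 2 (0.0727) of set 6.

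Mrpl51 and Mrps27, which had fallen most in KO cells of set 5, rose from set 5 to set 6 in KO cells by 0.45 (SE 0.13; adjusted p = 0.0387) and 0.44 (SE 0.12; adjusted p = 0.0337). The set 5 KO libraries enter both comparisons. Relative to the median the rises were 0.35 and 0.34 and did not pass (adjusted p = 0.115 and 0.106). As deposited both were lost without KO replicate 1 or 3 of set 5 or KO replicate 1 or 2 of set 6 (0.0686 to 0.185 for Mrpl51 and 0.0927 to 0.122 for Mrps27). The count of rises in KO cells was 3 without KO replicate 1 of set 6, 7 without KO replicate 1 or 3 of set 5 and 8 without KO replicate 2 of set 6.

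The KO against WT difference itself was compared between sets. From set 3 to set 5 it moved up for 13 members and down for 7 by limma as deposited, where it moved up for 43.2% and down for 6.82% of all genes. After centring it moved up for 1 and down for 42 (18.7% and 18.5% of all genes). The count moving down as deposited was 4 without KO replicate 3 of set 5, WT replicate 3 of set 3 or WT replicate 1 of set 5. Mrpl51 had the largest change downward at -0.80 (SE 0.19; adjusted p = 0.00233), and Mrpl53 and Mrpl28 of the large subunit changed by -0.53 (SE 0.13; adjusted p = 0.00374) and -0.52 (SE 0.11; adjusted p = 0.00122). Mrpl9 changed by 0.81 (SE 0.14; adjusted p = 0.000251) and Mrpl37 by 0.69 (SE 0.15; adjusted p = 0.00108). The change of Mrpl9 was the 1 upward change that passed after centring, at 0.40 (adjusted p = 0.0416), and it was lost without any 1 of 8 of the 12 libraries (0.0643 to 0.103), which were KO replicates 1 and 3 and WT replicates 1 and 2 of both sets. From set 3 to set 6 the difference moved up for 18 members and down for none as deposited (46.2% and 4.11% of all genes), and after centring up for none and down for 14 (12.7% and 11.4% of all genes). At an unadjusted p under 0.05 the numbers were 25 and 0 as deposited (51% and 5.13% of all genes), and 1 and 24 after centring (19.4% and 17.6% of all genes). Without KO replicate 2 of set 3, WT replicate 3 of set 3 or WT replicate 1 of set 6, 7 moved down after centring, and without KO replicate 3 of set 6, 8 did. Mrpl24 changed most, by 0.68 (SE 0.10; adjusted p = 4.72e-05), and by 0.24 after centring (adjusted p = 0.0819). Both comparisons use the libraries of set 3.

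Large and small subunits moved alike in direction. After centring, 40 of 51 large and 24 of 26 small subunit members fell in KO cells of set 5 (medians -0.54 and -0.45), where 24.7% of all genes fell. In set 6, 32 and 15 fell (medians -0.35 and -0.28), where 18.5% of all genes fell. From set 3 to set 5, 42 large and 23 small subunit members fell in WT cells (medians -0.63 and -0.68), where 36.8% of all genes fell. In KO cells 49 and 24 fell (medians -1.16 and -1.0), where 35.7% of all genes fell. Members with a bacterial counterpart and those found only in mitochondria had centred medians of -0.55 and -0.54 in the large subunit, and of -0.43 and -0.49 in the small subunit, in set 5. The difference between subunits was not tested. No KO against WT call was made on either scale in any set for 7 members (Mrpl2, Mrpl22, Mrpl23, Mrpl32, Mrpl38, Mrps23 and Mrps35). The share of all genes without any such call was not counted, so whether 7 of 78 is few or many cannot be said. In set 5 alone, 50.1% of all genes rose and 8.08% fell as deposited.

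Some members have roles or places that their symbols do not tell. Mrps36 is known as a subunit of the 2-oxoglutarate dehydrogenase complex of the citric acid cycle. It stood at 11.89, 11.80 and 11.80 in WT and at 11.76, 11.66 and 11.28 in KO libraries of set 5, and fell by 0.26 (SE 0.10; adjusted p = 0.0288), a call lost without KO replicate 3 (0.194) or WT replicate 1 (0.091). Relative to the median its difference was -0.65. Mrpl58, a peptidyl-tRNA hydrolase built into the large subunit, differed by -0.29 (SE 0.12; adjusted p = 0.0516) in set 5, and fell by 0.68 relative to the median (adjusted p = 0.000298). Mrps30 and Mrps18a sit in the large subunit in spite of their symbols. Mrps30 was at 10.29, 10.35 and 10.30 in WT and at 10.54, 10.56 and 10.56 in KO libraries of set 5. In set 6 it rose by 0.29 as deposited (SE 0.07; adjusted p = 0.00204), with a centred difference of -0.12. Between set 3 and set 5 Mrps30 fell by 0.51 (adjusted p = 8.44e-06) in WT cells and differed by -0.06 (adjusted p = 0.443) in KO cells. Mrps18a differed by -0.10 (adjusted p = 0.372) in set 5 as deposited, and fell by 0.48 after centring (adjusted p = 0.000318). Mrpl12, a stalk protein that also binds the mitochondrial RNA polymerase, stood at 12.68, 12.73 and 12.52 in WT libraries of set 3 and at 11.43, 11.31 and 11.12 in those of set 5. It fell by 1.36 (adjusted p = 2.4e-08) in WT and by 1.42 (adjusted p = 9.04e-09) in KO cells, while KO and WT cells of set 5 differed by -0.21 (adjusted p = 0.12; -0.60 and adjusted p = 0.000387 after centring).

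Falls from set 3 to set 5 were also frequent in other lists of mitochondrial gene expression. In WT cells as deposited, falls were found in 5 of 5 ribosomal proteins without an Mrp symbol, 10 of 14 translation factors, 25 of 26 genes of ribosome assembly and rRNA modification, 14 of 17 mitochondrial aminoacyl-tRNA synthetases, 20 of 21 genes of mitochondrial DNA expression and 8 of 13 mitochondrially encoded genes, where 38.3% of all genes fell. The last count was 5 without WT replicate 2 of set 3. In KO cells the falls numbered 4, 9, 16, 11, 14 and 3 as deposited, where 23.4% of all genes fell, so that the 3 of 13 mitochondrially encoded genes were at the share of all genes. After centring they numbered 5, 10, 22, 12, 17 and 9 (35.7% of all genes). The rRNA methyltransferase gene Mrm3 fell by 1.95 (SE 0.18; adjusted p = 8.75e-08) in WT cells and the elongation factor gene Tsfm by 1.49 (SE 0.09; adjusted p = 1.44e-09). Pdf, which removes the formyl group of new mitochondrial proteins, differed by -2.01 (SE 0.19; adjusted p = 1.04e-07). Nrf1, which encodes the factor named above, rose by 0.53 (SE 0.11; adjusted p = 0.000334). Of the mitochondrially encoded genes, mt-Nd1 of complex I fell by 0.93 (SE 0.07; adjusted p = 4.5e-09) and mt-Co1 of complex IV rose by 0.33 (SE 0.07; adjusted p = 0.000832).

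**Figure D4:**
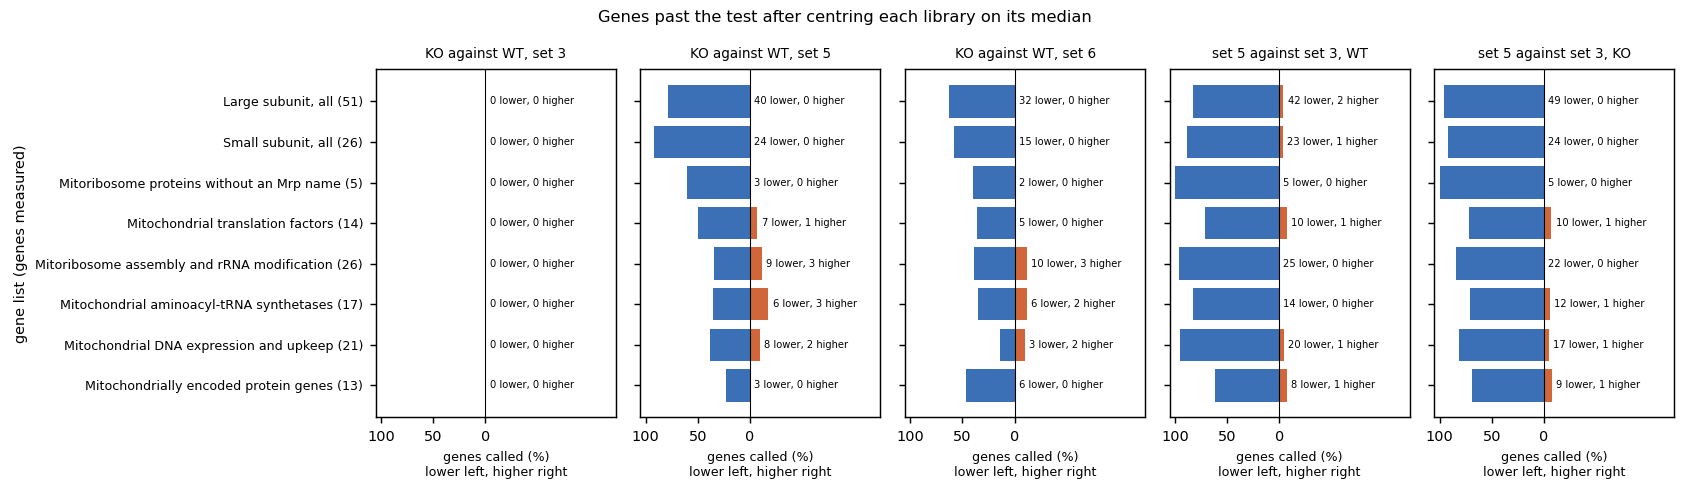
Percent of the measured genes of each list that passed the test after centring, lower to the left and higher to the right of 0, with 1 panel per comparison and the counts printed beside the bars. In set 5 the bars for lower genes are longest for the subunits (40 of 51 large and 24 of 26 small, against 24.7% of all genes), and from set 3 to set 5 they are long for every list.

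Between KO and WT cells most of these lists had members that passed in both directions. In set 5 as deposited, 11 assembly genes rose and 4 fell, 5 translation factors rose and 2 fell, 4 synthetases rose and 3 fell, 8 genes of mitochondrial DNA expression rose and 2 fell, and 6 mitochondrially encoded genes rose and none fell. With 50.1% of all genes higher and 8.08% lower, the shares that rose lay below that of all genes in each of these lists. For the assembly genes the falls were 1 when KO replicate 1 was left out, and 2 when KO replicate 3 or WT replicate 1 was. They were 1 without KO replicate 3 for the synthetases and 1 without WT replicate 1 for the genes of mitochondrial DNA expression. After centring 9, 7, 6, 8 and 3 genes fell, where 24.7% of all genes fell. Without WT replicate 1 the last 2 of these counts were 4 and 1. The centred rises in the same lists were 3, 1, 3, 2 and 0, where 24.9% of all genes rose. With 1 library left out they numbered 1 to 3, 1 to 2, 1 to 4, 1 to 2 and 0 to 1. Polg, the catalytic subunit of the mitochondrial DNA polymerase, rose by 1.60 (SE 0.13; adjusted p = 8.68e-08), and by 1.21 relative to the median. Tars2, the mitochondrial threonyl-tRNA synthetase gene, rose by 1.09 (SE 0.12; adjusted p = 1.35e-06) and Mterf3, an assembly factor gene, by 1.06 (SE 0.16; adjusted p = 4.01e-05). Tefm, the elongation factor gene of mitochondrial transcription, fell by 0.91 (SE 0.22; adjusted p = 0.00179). Among the ribosomal proteins without an Mrp symbol, 2 rose and 2 fell. Chchd1 and Gadd45gip1 fell by 0.51 (SE 0.09; adjusted p = 1e-04) and 0.49 (SE 0.11; adjusted p = 0.000762), and Ptcd3 and Dap3 rose by 0.30 (SE 0.08; adjusted p = 0.00312) and 0.23 (SE 0.07; adjusted p = 0.0155), with centred differences of -0.09 and -0.16 that did not pass. The call on Dap3 was lost without WT replicate 2 (0.055). In set 6 Dap3 rose by 0.41 (SE 0.07; adjusted p = 0.000202), and by 0.00 after centring. The lists above, assembly genes first, had 9, 5, 6, 13 and 3 rises in set 6 and 1, 1, 0, 2 and 0 falls. Of all genes 53.9% rose, less than the 13 of 21 genes of mitochondrial DNA expression, and 4.59% fell. With 1 library left out the rises numbered 7 to 11, 3 to 5, 5 to 6, 8 to 12 and 0 to 5. After centring 10, 5, 6, 3 and 6 genes fell and 3, 0, 2, 2 and 0 rose (18.5% and 18.8% of all genes). Without 1 library those falls numbered 8 to 10, 3 to 7, 5 to 6, 2 to 3 and 3 to 7. In set 3, 1 gene of these lists passed as deposited, the initiation factor gene Mtif2, which fell by 0.48 (SE 0.14; adjusted p = 0.0395), and none after centring. That call held without WT replicate 3 but not without any 1 of the other 5 libraries (0.0615 to 0.182).

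The authors' deposited table, which holds their own fold changes and adjusted p-values, lists fewer members than the test used here. Its contrasts for KO cells of set 5 and of set 6 both name the reference WT.96, and the names do not say which WT libraries that holds. They may thus differ from the comparisons within a set used here. In the authors' deposited table, 2 members rose (Mrpl9 and Mrpl37) and 3 fell (Mrpl51, Mrps27 and Mrpl42) in KO cells of set 5 at an adjusted p under 0.05, where 34% of all genes rose and 3.79% fell. For KO cells of set 6 the authors' deposited table has 2 rises (Mrpl24 and Mrpl33) and no fall (33.1% and 2.07% of all genes). Another contrast against WT.96, whose name gives no set for the KO cells, has 2 rises (Mrpl9 and Mrpl37) and 1 fall (Mrpl51), with 41.6% and 3.92% of all genes.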

How the data were processed

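RNA-seq of polyadenylated RNA from 18 libraries was used, in the 6 groups of the labels (KO and WT in sets 3, 5 and 6, 3 libraries each). Salmon 1.9.0, edgeR, limma and the GRCm39 build are named, without their roles, per the submitters' processing notes. The main table of the authors holds values per gene on a log2 scale, per the file headers and their range. How they were normalized is not stated there, so depth is unknown. A second deposited table of the authors holds log2 fold changes, a test score and p-values with and without adjustment, per the file headers.

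Differences were tested with limma 3.58.1 in R 4.3.3, with 1 model of 6 group means over 12547 genes, a variance trend, 12 residual degrees of freedom and Benjamini-Hochberg adjustment over all genes (threshold 0.05), on the deposited values and after subtracting each library's median. The procedure was tested on simulated data with independent noise. Those data lacked the shift of the bulk of genes and the shared deviations between libraries seen here, so that test does not cover these features. The labels do not say whether replicates came from separate mice, which means that the spread behind every p-value may be technical. Per-sample columns outside the labelled samples numbered 0. The members and the other gene lists were chosen with earlier results of these data known.

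Members were named by rule. In each KO against WT comparison these were the 6 largest called rises and falls as deposited and the 4 after centring, and in the other comparisons up to 4 in each direction. Mrps36, Mrpl58, Mrps30, Mrps18a, Mrpl12 and Dap3 were always named, and up to 2 called genes per direction and comparison in the other lists. Not all of the latter are printed. Between KO and WT of a set, libraries of equal number deviated together no more than those of unequal number. The correlation of deviations from group means was -0.08 to 0.18 for equal and -0.14 to 0.18 for unequal numbers. These values cannot exclude a pairing, which the labels do not give. Between sets 5 and 6 equal numbers deviated together (0.22 to 0.34 in KO, 0.12 to 0.16 in WT), which the labels do not explain. Between sets 3 and 5 the values for equal numbers were smaller but also above 0. They were 0.069 to 0.074 in WT cells (unequal numbers -0.049 to -0.030) and 0.03 to 0.15 in KO cells (unequal numbers -0.15 to 0.06). The main model paired no libraries. Alternatives were median centring, no variance trend, the replicate number as a block, a minimum fold of 1.2, a mean log2 value of 6 or more, 1 added on the linear scale and leaving out each library. Quantile normalization, the block within each genotype and the alternatives to the centred counts were chosen after seeing the data. Promoter sequences came from RefSeq on GRCm38.p6, and motifs were searched as exact letters on both strands.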

Additional observations from a re-analysis of the deposited data

Results flagged for a closer look

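For 12 results of members the KO against WT difference differed between sets by the test of the difference itself. From set 3 to set 5 it changed by 0.81 for Mrpl9 (-0.19 and 0.62 in sets 3 and 5), by 0.78 for Mrps35, by 0.69 for Mrpl37 and by 0.48 for Mrpl30 (-0.26 and 0.21). The call on Mrps35 (adjusted p = 0.0414) was lost without any 1 of 8 of the 12 libraries (0.0564 to 0.115). In the other direction it changed by -0.80 for Mrpl51, by -0.53 for Mrpl53, by -0.52 for Mrpl28 and by -0.43 for Mrps10 (adjusted p = 0.0327). The last call was lost without KO replicate 2 of set 3, KO replicate 3 of set 5, WT replicate 3 of set 3 or WT replicate 1 of set 5 (0.0667, 0.0699, 0.078 and 0.0946). From set 3 to set 6 it changed by 0.68 for Mrpl24, by 0.64 for Mrpl35, by 0.64 for Mrpl37 and by 0.57 for Mrpl9. The call on Mrpl35 (adjusted p = 0.035) was lost without any 1 of 8 of the 12 libraries (0.0532 to 0.0968). After centring, the upward changes shrank to between 0.06 and 0.40 and that of Mrpl9 in set 5 passed, while the 4 downward changes grew to between -1.21 and -0.84 and all passed.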

How the results depend on the processing

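Counts below are members that rose and fell. Apart from median centring and the block within each genotype, shares of all genes were not counted under these settings. Whether those counts lie above or below the share of all genes thus cannot be said. Median centring gave 0 and 0 in set 3, 0 and 65 in set 5, 0 and 48 in set 6, 0 rises from set 3 to set 5 in KO cells, 3 rises from set 5 to set 6 in KO cells, and 1 and 42 and 0 and 14 for the KO effect of sets 5 and 6 minus set 3. The median difference turned to -0.34 in set 6, -0.41 for set 5 minus set 3 and -0.22 for set 6 minus set 3. Quantile normalization gave 1 and 0 in set 3, 0 and 65, 0 and 47, 0 rises, 3 rises, 1 and 42 and 0 and 16. A minimum fold of 1.2 gave 0 falls in set 3, 2 and 3 in set 5, 2 and 0 in set 6, 0 rises from set 3 to set 5 in either genotype, 0 rises from set 5 to set 6 in KO cells, 2 and 1 for set 5 minus set 3 and 3 rises for set 6 minus set 3. Without the variance trend 0 fell in set 3 and 0 rose from set 3 to set 5 in WT cells. With the replicate number as a block 4 fell in set 3 and 1 rose from set 5 to set 6 in WT cells, and within each genotype the block gave 1 rise in WT and 28 in KO cells. For centred counts a minimum fold of 1.2 left 35 falls in set 5, 6 in set 6, 0 rises from set 3 to set 5 in WT cells, 0 rises from set 5 to set 6 in KO cells, 0 and 14 for set 5 minus set 3 and 1 fall for set 6 minus set 3. The replicate block gave 1 fall in set 3, 7 rises from set 5 to set 6 in KO cells and 0 rises for set 5 minus set 3, the block within genotype 1 fall in WT and 7 rises in KO cells from set 5 to set 6, and no trend 0 rises for set 5 minus set 3. The cause was not tested. The filter on a mean log2 value of 6 and the added 1 moved no count by over 1.5 times. Leaving out 1 library gave 0 to 8 falls in set 3, 4 to 9 rises and 13 to 28 falls in set 5, 12 to 20 and 0 to 3 in set 6, 0 to 2 rises and 63 to 67 falls from set 3 to set 5 in WT cells, 3 to 4 and 58 to 60 in KO cells, 3 to 17 rises from set 5 to set 6 in KO cells, 10 to 15 and 4 to 10 for set 5 minus set 3 and 14 to 23 rises for set 6 minus set 3. The centred ranges were 0 to 2 falls in set 3, 0 to 1 rises and 56 to 63 falls in set 5, 33 to 49 falls in set 6, 0 to 3 rises and 62 to 65 falls from set 3 to set 5 in WT cells, 71 to 74 falls in KO cells, 0 to 2 falls in WT and 0 to 6 rises and 0 to 1 falls in KO cells from set 5 to set 6, 0 to 2 and 29 to 41 for set 5 minus set 3, and 0 to 1 and 7 to 14 for set 6 minus set 3. Depth per library is unknown, so no counting error could be given.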
